A study of Mus musculus with 12 samples.

Results

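RNA of 40 genes for secreted plasma proteins was followed, by symbol, in immune cells of mouse liver. The set holds 40 genes of the 24319 entries in the table, and all 40 were found there, read above 0 in all 12 libraries and entered the tests. By role they are 10 carriers and transport proteins, 11 clotting and plasma-binding proteins, 10 protease inhibitors, 5 apolipoproteins and 4 complement proteins. The genes were chosen by name as products of hepatocytes, with earlier results of these data known.

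The RNA came from cells of C57BL/6 liver that were bound by a PE-coupled antibody to CD45, a surface protein of leukocytes, and collected on PE beads in a magnetic column. All 4 groups, controls included, had received human c-Myc and N-ras by hydrodynamic transfection, a fast high-volume injection that brings DNA into liver cells, on day 0. Control mice were given PBS into the peritoneum on days 14, 16, 18, 20 and 22 and 200 µg of IgG on days 17, 19 and 21. The polyIC group received polyIC, a synthetic double-stranded RNA, at 4 mg/kg in place of PBS, with the same IgG. The antiPDL1 group received PBS and, in place of IgG, 200 µg of antibody against PD-L1, which binds the inhibitory receptor PD-1 of T cells. The combination group received polyIC and the PD-L1 antibody on those days. Each group had 3 libraries, numbered 0 to 2, and the labels do not say whether these came from separate mice, so p-values measure the spread between libraries, which may be technical. The protocol gives euthanasia on day 24 while a time point label reads day 22, and neither the promoter of the transfected genes nor the number of cells that took them up is given in the sources used here.

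The liver supplies most proteins of the blood, and hepatocytes are its main secretory cells. They release albumin and other carriers, clotting factors and the inhibitors that hold them in check, the apolipoproteins of lipoprotein particles and much of complement, and transcription factors of the HNF1, HNF4 and C/EBP families drive many of these genes. Hepatocytes do not carry CD45, the antigen on which the sequenced cells were selected. Which cells the transcripts came from was not tested.

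The stretch around the start site is shown for 5 members, with the letters of a pair of liver-factor motifs in capitals. Whether these motifs bear on the members' changes in these libraries was not tested. RefSeq promoters (mouse build GRCm38.p6, from 250 bases before to 50 bases after the annotated start) were at hand for 33 of the 40 members, with 37 start sites in all. There is no entry for Ttr, Apoc3, Plg, Serpina3k, Kng1, Trf and Cfi. Each sequence is written 5′ to 3′ on the strand of its gene, and capitals mark GTTAAT or its reverse complement, a core that HNF1 factors recognise, and TTGCNNAA or its reverse complement, a C/EBP core. Alb (chr5:90460620-90460919, plus strand), Fgb (chr3:83049814-83050113, minus strand), Serpina1a (chr12:103863570-103863869, minus strand) and Serpina1b (chr12:103738140-103738439, minus strand) are 4 of the 5 members that hold both motifs. Hpx (chr7:105600067-105600366, minus strand) is shown because its ratio to Alb is among those that differed between groups, as described below.
Alb: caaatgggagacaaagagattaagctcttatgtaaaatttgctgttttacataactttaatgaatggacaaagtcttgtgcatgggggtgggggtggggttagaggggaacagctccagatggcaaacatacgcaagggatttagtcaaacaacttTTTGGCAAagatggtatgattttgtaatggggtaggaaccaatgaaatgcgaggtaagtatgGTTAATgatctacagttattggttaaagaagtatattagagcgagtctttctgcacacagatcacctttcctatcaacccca
Fgb: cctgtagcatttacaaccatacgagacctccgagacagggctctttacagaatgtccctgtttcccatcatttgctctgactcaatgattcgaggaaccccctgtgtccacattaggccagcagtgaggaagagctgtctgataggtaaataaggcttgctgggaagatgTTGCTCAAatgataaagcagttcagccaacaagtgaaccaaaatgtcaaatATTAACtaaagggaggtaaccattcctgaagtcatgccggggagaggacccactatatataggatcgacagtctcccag
Serpina1a: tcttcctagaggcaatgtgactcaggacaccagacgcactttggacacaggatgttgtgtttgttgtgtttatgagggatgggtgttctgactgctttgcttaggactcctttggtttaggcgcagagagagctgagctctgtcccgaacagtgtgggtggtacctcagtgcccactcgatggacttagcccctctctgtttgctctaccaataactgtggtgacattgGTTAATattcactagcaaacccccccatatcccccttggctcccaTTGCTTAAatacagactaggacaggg
Serpina1b: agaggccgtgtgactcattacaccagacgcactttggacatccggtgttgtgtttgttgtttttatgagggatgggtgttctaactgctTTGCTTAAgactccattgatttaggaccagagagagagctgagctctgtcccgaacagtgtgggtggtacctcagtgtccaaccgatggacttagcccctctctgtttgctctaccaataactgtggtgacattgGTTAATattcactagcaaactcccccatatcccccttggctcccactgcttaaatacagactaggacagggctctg
Hpx: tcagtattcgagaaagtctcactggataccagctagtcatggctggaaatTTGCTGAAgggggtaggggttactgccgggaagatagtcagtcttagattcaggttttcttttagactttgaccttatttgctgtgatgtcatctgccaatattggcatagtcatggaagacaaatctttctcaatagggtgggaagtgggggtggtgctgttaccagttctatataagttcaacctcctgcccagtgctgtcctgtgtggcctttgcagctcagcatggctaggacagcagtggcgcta

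GTTAAT, searched on both strands, was present in 12 of the 33 members (36.4%) and in 8.24% of all 27025 genes in the promoter table, or 7.1% of its 32851 promoters. The members that hold it are Alb, C8a, C8b, F2, Fga, Fgb, Gc, Itih1, Pzp, Serpina1a, Serpina1b and Vtn. In Alb, Fgb, Serpina1a and Serpina1b the marked copy begins 32, 29, 21 and 26 bases before the start. TTGCNNAA was present in 15 of the 33 (45.5%) and in 12.2% of genes, or 10.8% of promoters. Its copies lie farther apart: they begin 94 bases before the start in Alb, 80 in Fgb, 161 in Serpina1b and 200 in Hpx, and after the start in Serpina1a. Alb, Fga, Fgb, Serpina1a and Serpina1b hold both. TATAAA was present in 27.3% of members and 15.7% of genes, and CCAAT in 45.5% and 41.1%. Neither the full HNF1 palindrome nor the HNF4 pattern CAAAGTCCA was found in a member window. These are matches of letters, which may overlap one another, and say nothing of binding. The promoters of Serpina1a and Serpina1b, neighbouring copies of the alpha-1-antitrypsin gene, share 273 of 293 aligned bases (93.2%). These windows lie mostly before the start, and transcript sequences were not compared. Where transcripts of copies are as alike, reads can be assigned to either. The same may hold for Serpina3k in its own gene family, so the values of these 3 genes may be uncertain as to the copy.

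Levels are FPKM, a fragment count divided by the length of the transcript and the size of the library, and can be compared between genes. The libraries' FPKM totals ran from 476111 to 677535. Relative sequencing depth, read from the steps between low values, ran from 0.479 to 1, with group means of 0.776 in control, 0.554 in polyIC, 0.601 in antiPDL1 and 0.813 with the combination. The leukocyte identity of the cells was plain: Ptprc, which encodes CD45, read 206 to 487 FPKM, and Cd52 1529 to 4270 FPKM. The summed level of 5 leukocyte genes (Ptprc, Cd52, Coro1a, Laptm5 and Cd53) was 3698 to 5243 FPKM in control, 5330 to 6397 in polyIC, 4419 to 7483 in antiPDL1 and 7076 to 7567 with the combination.

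By group mean, plasma protein RNA was most abundant in control and least abundant with the combination. Control replicate 2, however, lay below every polyIC library. The 40 members summed to 6387, 5641 and 2291 FPKM in control, a mean of 4773 ± 2181 (SD, n = 3). In polyIC they summed to 2704, 3876 and 3310 FPKM (3296 ± 586). In antiPDL1 they summed to 1248, 667 and 3430 FPKM (1782 ± 1457), and in combination to 315, 488 and 567 FPKM (457 ± 129). All 3 combination libraries lay below all 9 others, and their mean was 10.5-fold below the control mean, 7.22-fold below polyIC and 3.90-fold below antiPDL1. As a mean share of the FPKM total the members made up 0.928% in control, 0.534% in polyIC, 0.332% in antiPDL1 and 0.0708% with the combination. The entry Mir6236 alone took from 4.97% (control replicate 0) to 20.6% (combination replicate 2) of that total. Without it the members made up 0.535% to 1.41% in control and 0.495% to 0.740% in polyIC. The shares were then 0.113% to 0.788% in antiPDL1 and 0.0590% to 0.114% with the combination. In these bulk libraries fewer cells of a type and less RNA per cell cannot be told apart.

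A pair of libraries stood apart from their groups. Control replicate 2 was the lowest control for all 40 members, and antiPDL1 replicate 2 was the highest antiPDL1 library for all 40. Comparisons that use either are given below with and without both, a choice made with earlier results of these data known. Shares of all genes that passed are given for the fit of 12 libraries only. Combination replicate 0 was the lowest of the 12 libraries for 36 members.

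**Figure D1:**
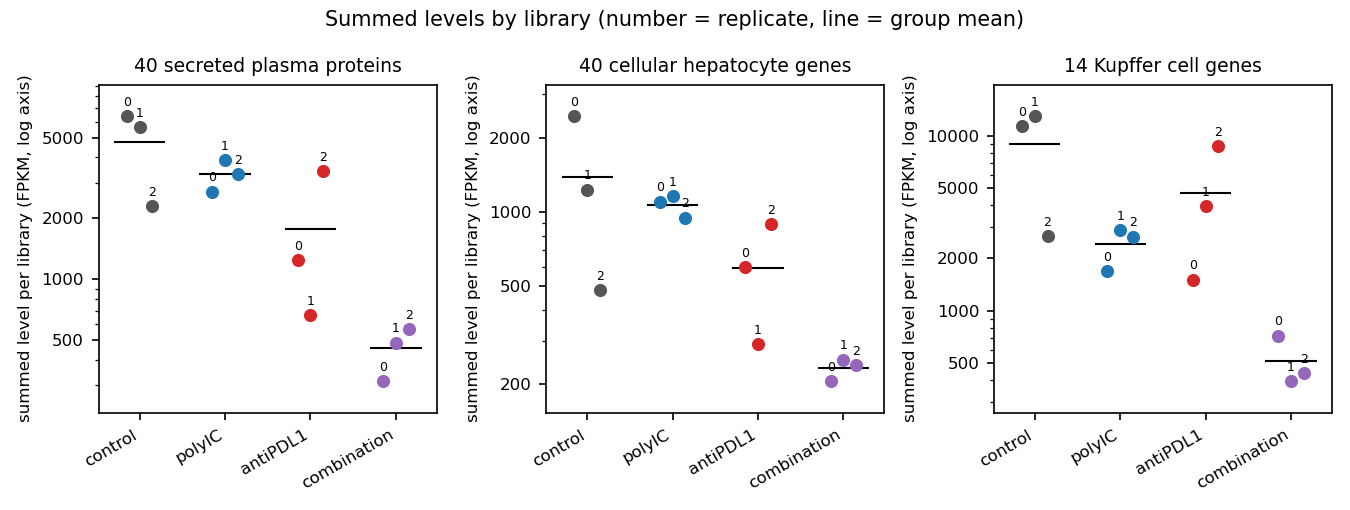
Summed FPKM per library (log axes) of the 40 plasma protein genes, 40 cellular hepatocyte genes and 14 Kupffer cell genes; points are libraries with their replicate number, lines are group means. The plasma protein sum ran from 315 to 567 FPKM in combination and from 2291 to 6387 in control.

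Among the carriers, Alb, which encodes albumin, had the highest mean over the 12 libraries and made up 18.6% to 29.5% of the summed level in each, although Trf read higher than Alb in control replicate 2 and antiPDL1 replicate 1. Alb read 1601, 1315 and 495 FPKM in control, 640, 934 and 978 in polyIC, 276, 124 and 1000 in antiPDL1 and 77.4, 121 and 144 with the combination. The combination libraries lay under every control and polyIC library and overlapped antiPDL1, whose lowest library read 124. Trf, which encodes the iron carrier transferrin, came second at 1162, 1224 and 505 FPKM in control, 328, 418 and 369 in polyIC, 178, 146 and 556 in antiPDL1 and 74.0, 57.6 and 74.0 with the combination. Unlike Alb, all 3 polyIC values of Trf were below all 3 controls. Ahsg, the gene of the mineral-binding protein fetuin-A, read 275, 265 and 76.7 FPKM in control, 118, 178 and 146 in polyIC, 58.2, 23.2 and 139 in antiPDL1 and 11.6, 19.9 and 21.3 with the combination. The other carriers averaged from 102 FPKM over 12 libraries for Ttr (transthyretin, a thyroid hormone and retinol-binding protein carrier) down to 4.95 FPKM for Fetub (fetuin-B). Between them lay Hpx, Gc, Rbp4, Ambp and Azgp1.

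The clotting group was led by the fibrinogen chains. Fgb, the beta chain, read 90.8, 108 and 46.8 FPKM in control, 54.7, 89.1 and 61.0 in polyIC, 25.1, 12.9 and 57.8 in antiPDL1 and 6.20, 11.7 and 14.7 with the combination. Fgg, the gamma chain, read 76.0, 79.5 and 32.2 FPKM in control, 53.4, 77.3 and 51.8 in polyIC, 22.2, 10.05 and 51.4 in antiPDL1 and 4.35, 9.54 and 13.1 with the combination. In both chains polyIC overlapped control, and combination overlapped neither. Apoh, a phospholipid-binding plasma protein, read 66.3, 56.3 and 25.4 FPKM in control, 34.1, 51.3 and 49.7 in polyIC, 12.9, 9.33 and 43.2 in antiPDL1 and 3.94, 5.65 and 7.67 with the combination. The remaining 8 (Fga, Kng1, Vtn, F2, Plg, Hrg, F12 and F9) averaged from 25.5 FPKM for Fga, the alpha chain, down to 2.07 FPKM for F9, coagulation factor IX.

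Of the protease inhibitors, Serpina3k, a mouse member of the antichymotrypsin family, read 161, 159 and 63.3 FPKM in control, 153, 207 and 137 in polyIC, 41.0, 20.5 and 112 in antiPDL1 and 11.2, 20.0 and 21.8 with the combination. Serpina1b, an alpha-1-antitrypsin gene, read 154, 160 and 98.0 FPKM in control, 49.0, 76.9 and 59.7 in polyIC, 25.8, 12.96 and 61.5 in antiPDL1 and 6.62, 7.72 and 8.28 with the combination. The pair differed under polyIC, where Serpina3k lay in or above the range of the controls and Serpina1b below it. Pzp, a broad protease-binding protein, read 55.7, 45.8 and 17.1 FPKM in control, 18.4, 37.2 and 31.8 in polyIC, 9.55, 5.28 and 35.3 in antiPDL1 and 3.55, 5.04 and 5.21 with the combination. Serpinc1 (antithrombin), Serpina1a, Itih4, Serpinf2 (alpha-2-antiplasmin), Itih2, Itih3 and Itih1 averaged from 16.7 down to 3.13 FPKM; the Itih genes encode heavy chains of inter-alpha-trypsin inhibitor.

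Apoa1 and Apoa2, the main proteins of high-density lipoprotein, had group means that descended from control through polyIC and antiPDL1 to combination. Apoa1 read 521, 574 and 169 FPKM in control, 180, 280 and 202 in polyIC, 123, 60.7 and 273 in antiPDL1 and 19.7, 39.1 and 38.7 with the combination. Apoa2 read 666, 291 and 116 FPKM in control, 230, 323 and 215 in polyIC, 112, 53.2 and 251 in antiPDL1 and 17.9, 35.3 and 44.4 with the combination. Apoc3, an inhibitor of lipoprotein lipase, read 221, 106 and 38.7 FPKM in control, 128, 168 and 136 in polyIC, 45.9, 19.6 and 104 in antiPDL1 and 7.88, 20.0 and 19.4 with the combination. In all 3 genes the polyIC values fell inside the wide span of the controls. Apoa5 averaged 7.34 FPKM and Apob, the structural protein of low-density and very-low-density lipoprotein, 5.04 FPKM.

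The complement genes were the least abundant group. Cfi, the protease that inactivates C3b and C4b, read 15.4, 16.8 and 6.54 FPKM in control, 7.88, 12.9 and 12.5 in polyIC, 3.67, 2.29 and 11.2 in antiPDL1 and 0.641, 1.67 and 1.99 with the combination. C9, the pore-forming end of the terminal pathway, read 17.0, 10.9 and 5.29 FPKM in control, 9.24, 15.6 and 9.55 in polyIC, 4.82, 2.03 and 10.003 in antiPDL1 and 0.670, 1.41 and 2.22 with the combination. C8b, a chain of C8, read 4.92, 5.30 and 2.02 FPKM in control, 5.65, 7.37 and 5.53 in polyIC, 1.47, 0.926 and 4.61 in antiPDL1 and 0.556, 0.841 and 1.09 with the combination. C8b is the member of this group whose 3 polyIC libraries all exceeded the controls. C8a, another chain of C8, averaged 3.09 FPKM.

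**Figure D2:**
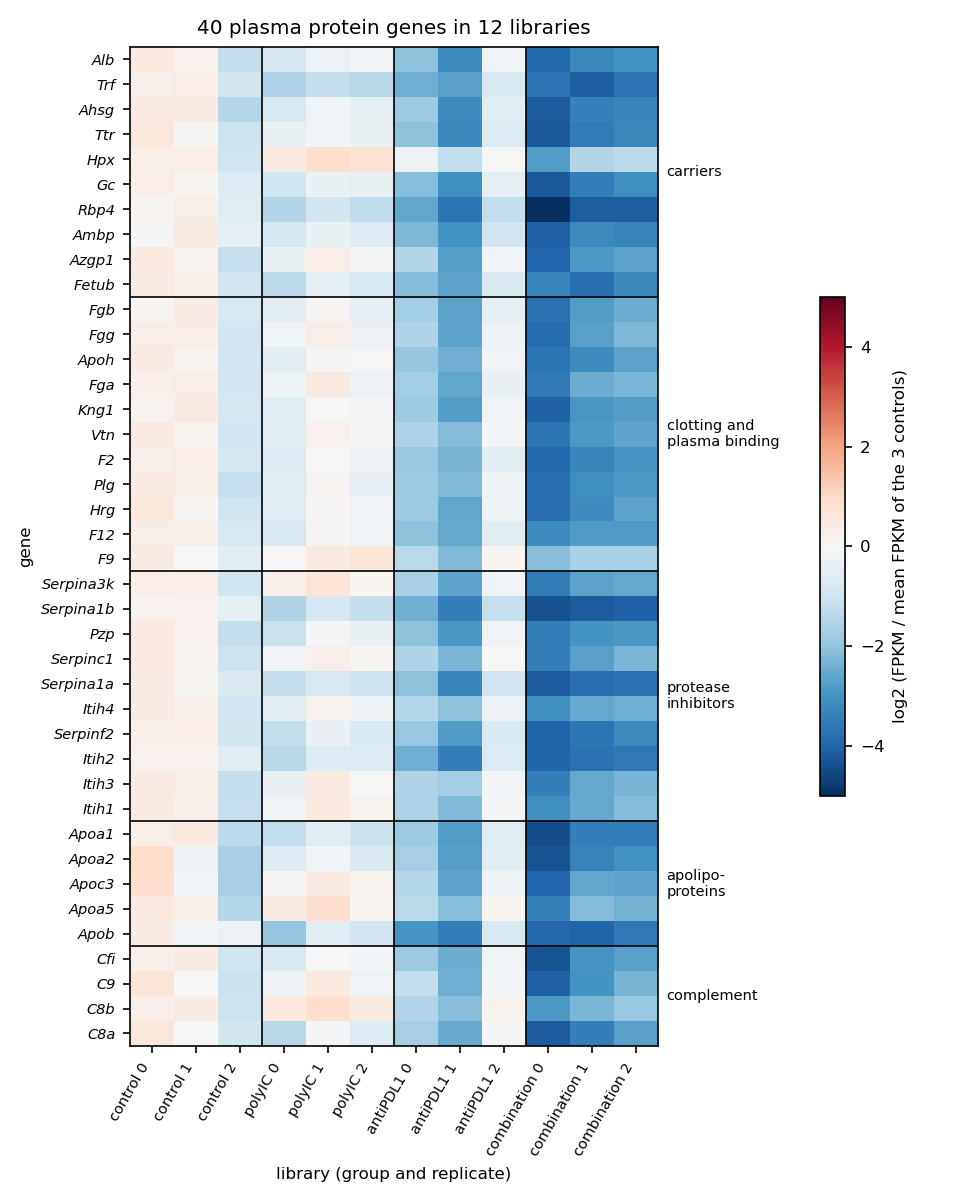
Each gene's FPKM in each of 12 libraries as log2 of its ratio to the mean of the 3 controls (color scale), with genes grouped by role. The combination columns are blue in all 40 rows, control replicate 2 is paler or bluer than the other controls, and antiPDL1 replicate 2 is paler than the other antiPDL1 libraries.

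Differences between groups were tested on log2(FPKM + 1) with limma, which moderates each gene's variance by that of all genes. Tested were the 11976 genes that reached 1 FPKM in 3 or more libraries, and p-values were adjusted by Benjamini-Hochberg over all of them, with a threshold of 0.05. The added 1 understates the change of low genes, so log2 changes of genes of unlike abundance are not on an equal footing. The polyIC, antiPDL1 and combination contrasts with control share the same 3 control libraries.

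All 40 members fell in combination against control, where 16.3% of all tested genes were lower and 13.1% higher by the same rule. Their median log2 change was -2.69, against 0.05 over all tested genes, and all 40 had combination values entirely below the controls, as did 20.3% of all genes. By role, 10 of 10 carriers, 11 of 11 clotting genes, 10 of 10 inhibitors, 5 of 5 apolipoproteins and 4 of 4 complement genes fell, with median log2 changes of -3.31, -2.63, -2.71, -2.74 and -2.11. The largest falls were in Rbp4, the plasma carrier of retinol (log2 change -4.25, SE 0.50, limma adjusted p = 0.000952), Serpina1b (-3.99, SE 0.43, adjusted p = 0.00074) and Trf (-3.70, SE 0.46, adjusted p = 0.00114). Rbp4 read 157, 175 and 92.4 FPKM in control and 3.45, 8.18 and 8.15 in combination. Alb fell by 3.19 on the log2 scale (SE 0.65, limma adjusted p = 0.0061). The smallest falls were in F9 (log2 change -1.01, SE 0.29, limma adjusted p = 0.0238), C8b (-1.41, SE 0.37, adjusted p = 0.0174) and Itih1 (-1.55, SE 0.37, adjusted p = 0.0114), all genes with under 4 FPKM on average. Without control replicate 2 and antiPDL1 replicate 2, 40 members again fell, with a median of -3.14.

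In combination against polyIC, 34 of the 40 members fell, where 1.09% of all tested genes were lower and 0.159% higher. All 40 had values wholly below those of polyIC, as did 16.1% of all genes, and the median log2 change was -2.53 against 0.06 over all genes. The largest falls were in Ttr (log2 change -3.27, SE 0.55, limma adjusted p = 0.0374), Apoc3 (-3.20, SE 0.65, adjusted p = 0.042) and Serpina3k (-3.19, SE 0.54, adjusted p = 0.0374). F9 (-1.30, SE 0.29, limma adjusted p = 0.0562), C8a (-1.52, SE 0.43, adjusted p = 0.114) and Fetub (-1.75, SE 0.38, adjusted p = 0.0537) had the smallest changes and did not pass. Alb (-2.91, limma adjusted p = 0.0582), Pzp (-2.38, adjusted p = 0.0738) and Apob (-1.77, adjusted p = 0.0693) did not pass either. These calls sit close to the threshold: none passed with no filter on low genes, with quantile normalization, with the replicate number as a block, or without control replicate 1, any polyIC library or any combination library, and 18 passed with median-of-ratios rescaling. The unadjusted limma p was under 0.05 for every member tested in all 21 alternatives tried; with the settings above, 9.27% of all genes were lower at that level and 4.29% higher. Control replicate 2 and antiPDL1 replicate 2 are not in this comparison and enter it only through the shared estimate of the spread. Without them the count was 40, with no share of all genes given for that fit.

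With polyIC alone, none of the 40 members passed in polyIC against control, where 1.17% of tested genes were lower and 2.46% higher. The median log2 change was -0.14, 27 members were negative, and 4 (Trf, Rbp4, Serpina1b and Apob) had an unadjusted limma p under 0.05, against 11.2% of all genes lower at that level. The lowest values were those of Trf (log2 change -1.27, SE 0.46, limma adjusted p = 0.143), Rbp4 (-1.15, SE 0.50, adjusted p = 0.21) and Serpina1b (-1.13, SE 0.43, adjusted p = 0.156). At the other end were Hpx, which encodes the heme-binding protein hemopexin (0.79, SE 0.45, limma adjusted p = 0.327), Apoa5 (0.57, SE 0.49, adjusted p = 0.514) and C8b (0.56, SE 0.37, adjusted p = 0.396). The polyIC values were wholly below control for 6 members (12.4% of all genes) and wholly above for 2, Hpx and C8b (16.2% of all genes). Without control replicate 2 and antiPDL1 replicate 2, 9 members fell and the median was -0.54, with no share of all genes given for that fit.

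In antiPDL1 against control all 40 changes were negative, with a median log2 change of -1.34, and none passed, where 0.259% of tested genes were lower and 0.00835% higher. At an unadjusted limma p under 0.05, 28 members were lower, against 9.34% of all genes lower and 7.62% higher. Rbp4 (log2 change -2.39, SE 0.50, limma adjusted p = 0.111), Serpina1b (-2.24, SE 0.43, adjusted p = 0.0745) and Ambp, the precursor of alpha-1-microglobulin and bikunin (-1.97, SE 0.43, adjusted p = 0.123), had the largest changes. Hpx (-0.39, SE 0.45, limma adjusted p = 0.658), F9 (-0.63, SE 0.29, adjusted p = 0.298) and C8b (-0.69, SE 0.37, adjusted p = 0.355) had the smallest. Groups did not overlap for 6 members, against 7.89% of all genes. The count rests on single libraries: 34 members fell without antiPDL1 replicate 2, 10 without control replicate 2 and 39 without both, when the median was -2.32. The shares of all genes above hold for the fit of 12 libraries, not for these settings.

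Mean log2 levels with the combination lay below antiPDL1 for all 40 members, with a median log2 change of -1.33, yet none passed, where 0.0251% of tested genes were lower and 0.1% higher. At an unadjusted limma p under 0.05, 33 members were lower, against 8.09% of all genes lower and 6.31% higher. Apoa1 (log2 change -2.00, SE 0.56, limma adjusted p = 0.165), Apoa2 (-1.88, SE 0.64, adjusted p = 0.225) and Rbp4 (-1.87, SE 0.50, adjusted p = 0.149) had the largest changes, and F9 (-0.38, SE 0.29, adjusted p = 0.59), C8b (-0.72, SE 0.37, adjusted p = 0.41) and F12 (-0.75, SE 0.36, adjusted p = 0.366) the smallest. For 26 members the 3 combination libraries were all below the 3 antiPDL1 libraries, against 12.1% of all genes lower and 8.29% wholly higher. Without both libraries that stand apart, 1 member fell and the median was -0.78.

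Levels were higher with polyIC than with the antibody for all 40 members (median log2 difference 1.12), and none passed, where 0.142% of tested genes were higher. Serpina3k (log2 difference 1.81, SE 0.54, limma adjusted p = 0.266), Ttr (1.69, SE 0.55, adjusted p = 0.311) and Apoc3 (1.63, SE 0.65, adjusted p = 0.425) differed most, and C8a (0.44, SE 0.43, adjusted p = 0.781), Trf (0.60, SE 0.46, adjusted p = 0.722) and Fetub (0.75, SE 0.38, adjusted p = 0.553) least. At an unadjusted limma p under 0.05, 29 members were higher, against 5.97% of all genes higher and 4.08% lower, and 9 did not overlap, against 8.69%. Without antiPDL1 replicate 2 the number that passed was 19, and without control replicate 2 as well it was 36. No share of all genes is given beside these counts. The order of groups was control, polyIC, antiPDL1 and combination by the mean summed level, and no member passed between neighbours in that order with all 12 libraries.

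Whether the change with polyIC depended on the antibody was tested as an interaction, the change from antiPDL1 to combination less the change from control to polyIC. No member passed, where 0.00835% of tested genes were lower, and the limma adjusted p was 0.999 for all 40. The median was -1.21, 39 values were negative, and 6 members had an unadjusted p under 0.05, against 1.51% of all genes lower and 0.893% higher. The lowest were Apoc3 (-2.13, SE 0.92), Hpx (-2.11, SE 0.64) and Serpina3k (-1.85, SE 0.77), and the highest Apob (0.07, SE 0.60), Fetub (-0.34, SE 0.54) and Itih2 (-0.35, SE 0.62). Without control replicate 2 and antiPDL1 replicate 2 the median was -0.21.

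**Figure D3:**
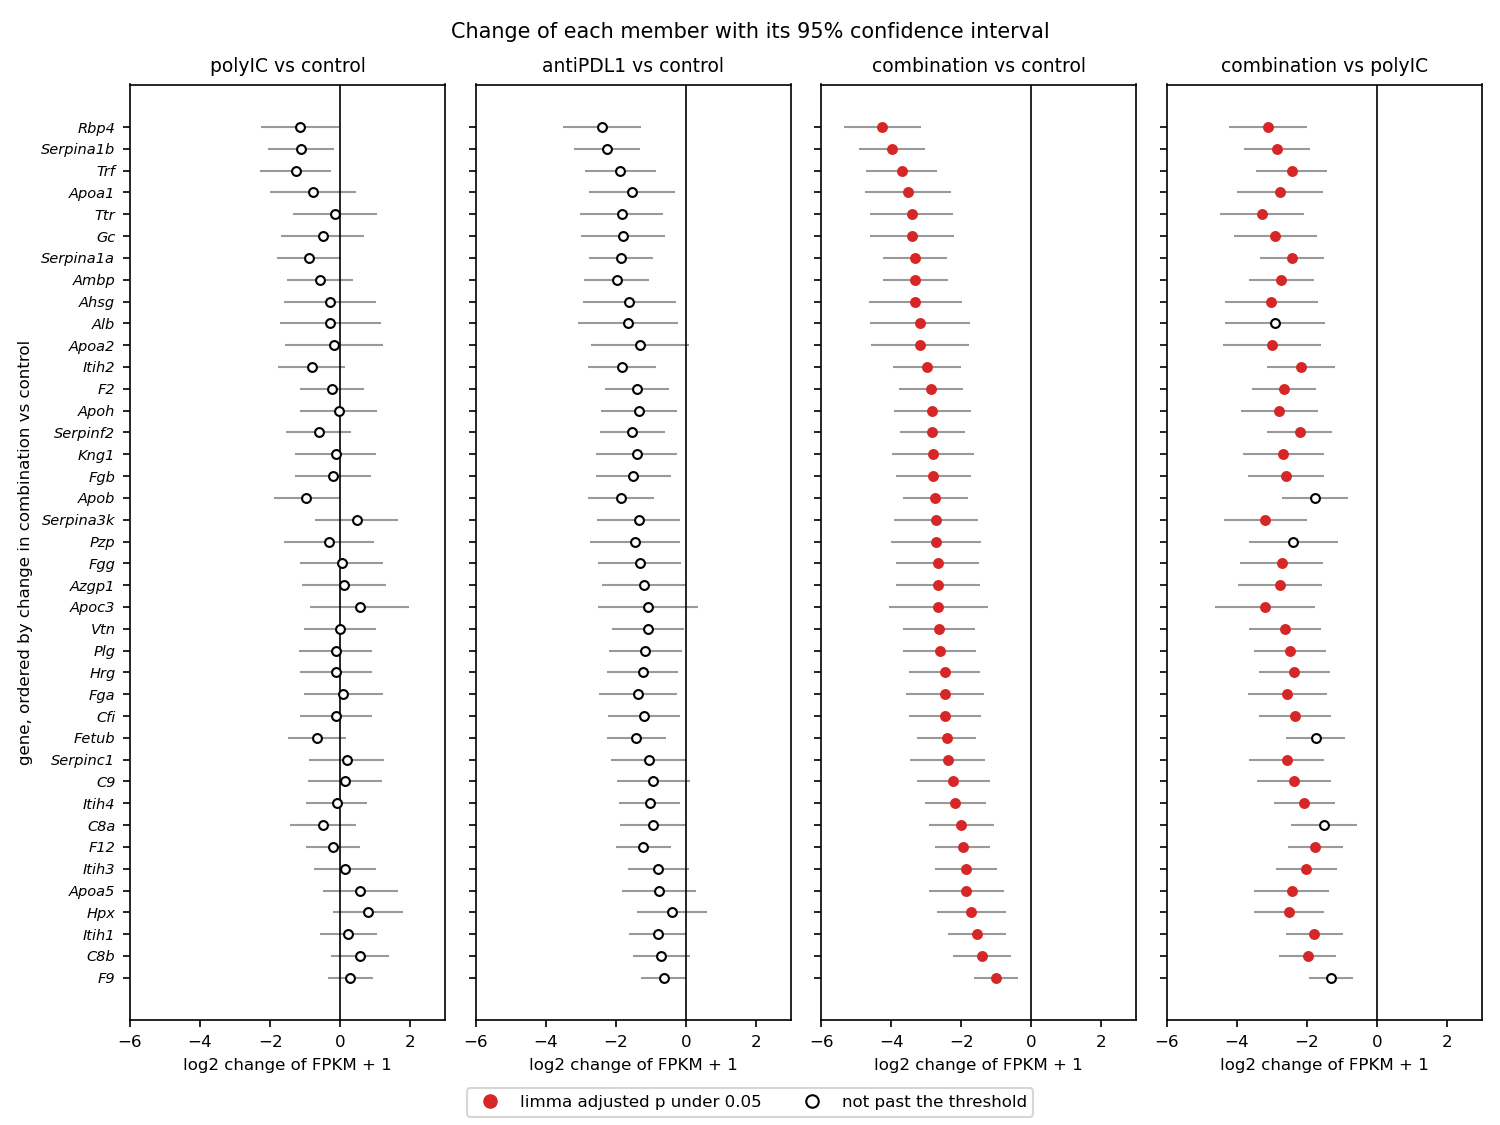
Change of each member's log2(FPKM + 1) (x axis) with its 95% confidence interval from limma in 4 comparisons, ordered by the change in combination against control; red points passed an adjusted p of 0.05. In combination against control 40 are red and in combination against polyIC 34.

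The members varied less relative to one another than in level, but many of their ratios to Alb differed between groups. The SD of log2(FPKM + 1) over the 12 libraries had a median of 1.28 over members, and of 0.32 once each library's median member was taken off. On this scale Vtn (vitronectin) varied least about the median member, with an SD of 0.107, and F9, the gene of clotting factor IX, most, with 0.729. Without the added 1, which weighs on low genes, the same medians were 1.49 and 0.272. On that second scale, chosen after the values were seen, Hrg (histidine-rich glycoprotein) varied least with an SD of 0.0835, and Hpx most with 0.589. Hrg stayed between 1.18% and 1.92% of Alb in all 12 libraries. Across the 12 libraries each member correlated with the mean of the other 39 at a Pearson r of 0.903 (Hpx) to 0.998, a description of points that share libraries and depth.

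Ratios to Alb, taken without the added 1, were wholly below all 3 controls in polyIC for 7 members (4.9% of all tested genes) and wholly above for 10 (4.04%). In antiPDL1 they were below for 1 (0.0752%) and above for 4 (2.18%). With the combination they were below for 5 (0.526%) and above for 11, where 90.9% of all tested genes were above; Alb, the denominator, was lower there. The mean ratio of F9 was 1.54 times that of control in polyIC and 2.65 times with the combination. For C8b, a subunit of the membrane attack complex, it was 2.00 and 1.94 times, and for Apoa5, an apolipoprotein of triglyceride metabolism, 1.97 and 1.74 times. All 6 of these sets of values lay wholly above control.

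Hpx and Rbp4 differed from control in opposite directions relative to Alb. Hpx read 120, 122 and 48.6 FPKM in control, 131, 177 and 161 in polyIC, 79.1, 40.9 and 97.3 in antiPDL1 and 13.8, 35.0 and 38.6 with the combination. As a percent of Alb that was 7.48, 9.26 and 9.83 in control, 20.4, 19.0 and 16.5 in polyIC, 28.7, 33.0 and 9.73 in antiPDL1 and 17.8, 28.9 and 26.8 with the combination. Relative to albumin RNA, hemopexin RNA was thus at its lowest in the controls and in antiPDL1 replicate 2, and higher in the other 8 libraries. Rbp4 read 50.8, 75.8 and 59.1 FPKM in polyIC and 23.2, 11.2 and 60.7 in antiPDL1, beside the control and combination values above. As a percent of Alb it was 9.80, 13.3 and 18.7 in control, 7.94, 8.12 and 6.04 in polyIC, 8.40, 9.05 and 6.07 in antiPDL1 and 4.46, 6.75 and 5.67 with the combination, with every treated library below every control.

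Trf and Serpina1b also took a smaller share with polyIC. Trf averaged 89.2% ± 15.2 of Alb in control (SD, n = 3) and 44.6% ± 6.72 in polyIC, and Serpina1b 13.9% ± 5.31 and 7.33% ± 1.10. Serpina1a, the neighbouring copy of Serpina1b, averaged 3.03% ± 0.730 and 1.90% ± 0.297. These departures of single members are given as values, with no test.

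**Figure D4:**
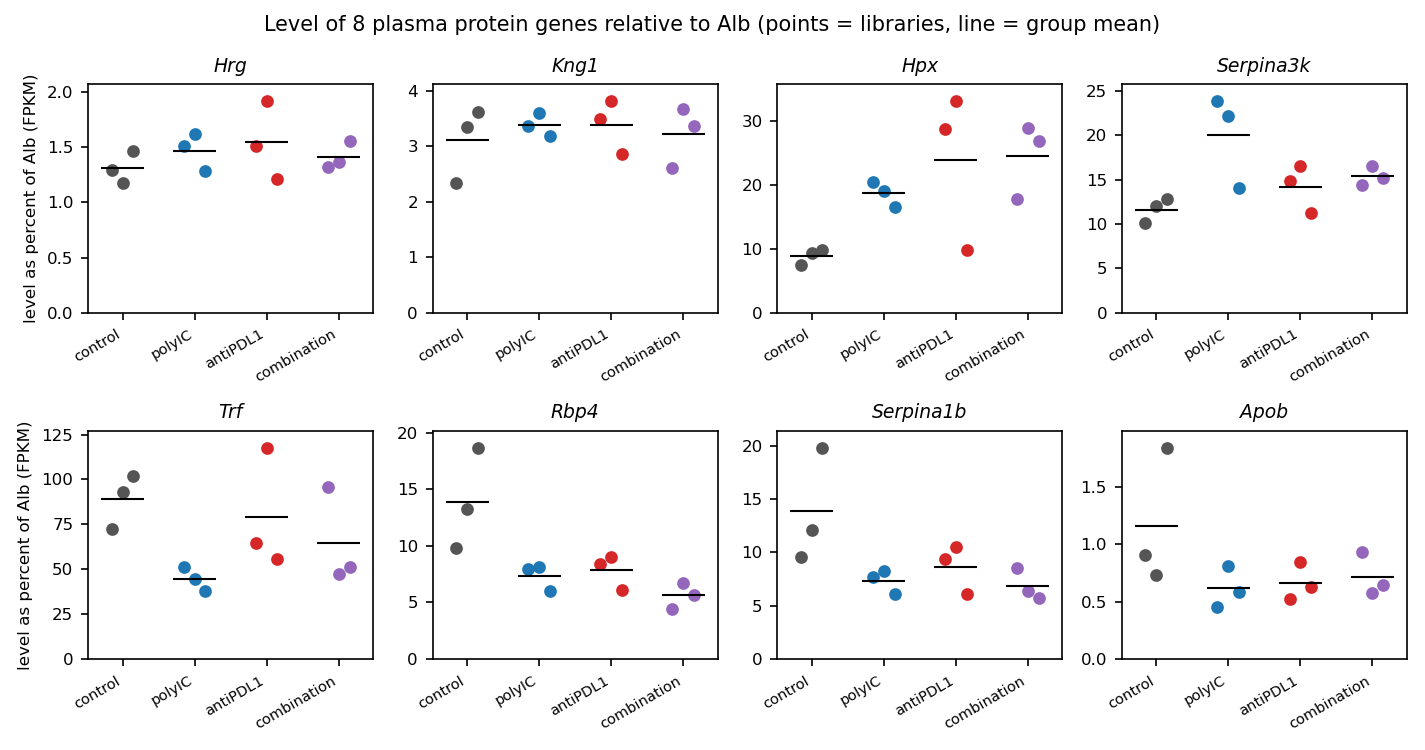
Level of 8 members as a percent of Alb FPKM in each library (points) with group means (lines). Hrg stays between 1.18% and 1.92%, Hpx is lowest in control and antiPDL1 replicate 2, and Rbp4 is highest in the 3 controls.

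Other hepatocyte RNA moved in the same direction. Of 40 genes for enzymes and other proteins that stay in the hepatocyte, 39 were tested: 33 fell in combination against control and 8 in combination against polyIC, with median log2 changes of -2.03 and -2.33. Their summed level was 2448, 1231 and 483 FPKM in control, 1100, 1157 and 950 in polyIC, 597, 292 and 891 in antiPDL1 and 207, 252 and 240 with the combination. Fabp1, the liver fatty acid-binding protein and the most abundant of them, read 788, 282 and 122 FPKM in control and 14.98, 28.2 and 34.3 in combination. The median member was 1.44 to 3.36 times the median cellular gene in the 12 libraries, 2.12 to 2.30 times in combination, and both ends of the range were controls. Scaled to the cellular genes of each library, an alternative added after the data were seen, the median log2 change of the 40 members in combination against control was -0.21.

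Further secreted liver proteins, 48 genes outside the 40, behaved alike with exceptions. Of 43 tested, 39 fell in combination against control and 2 rose; 17 fell against polyIC. The most abundant were Sepp1 (selenoprotein P; log2 change -2.32, limma adjusted p = 0.00507), Apoc1 (-4.74, adjusted p = 0.00189), Cfb (complement factor B; 1.75, adjusted p = 0.0265) and Serpina1e (-3.57, adjusted p = 0.0018). Sepp1, Apoc1 and Cfb are also made by macrophages, and A1bg read 0 in every library. Of 13 acute phase genes tested, 6 fell and 1, Lcn2 (neutrophil lipocalin, 1.32, limma adjusted p = 0.0185), rose in combination against control, and 2 rose in polyIC against control, the comparison in which no member passed. Among 8 tested genes of hepatocyte transcription factors 6 fell in combination against control, Hnf4a from 15.6, 9.58 and 3.92 FPKM to 0.633, 0.912 and 0.774. In combination against polyIC 0 of the 8 passed, with a median log2 change of -0.70, against -2.53 for the 40 members. The summed level of this list was 69.3 to 92.6 FPKM in polyIC and 54.3 to 128 FPKM with the combination, so these groups overlapped.

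Genes of other liver cells moved too, and their part in the members' changes was not tested. Of 14 tested Kupffer cell genes, the markers of resident liver macrophages, 11 fell in combination against control, with a median log2 change of -4.47 over the 14. In combination against polyIC the median was -2.65, and 0 of the 14 passed the limma test, although 11 had an unadjusted p under 0.05. Their summed level was 11368, 12920 and 2658 FPKM in control, 1682, 2897 and 2650 in polyIC, 1506, 3958 and 8725 in antiPDL1 and 719, 398 and 442 with the combination. Cd5l, another Kupffer cell marker, was listed at 0 in all 3 controls, was read as a failed estimate and is not in these sums. Control replicate 2 was low and antiPDL1 replicate 2 high here as well. In polyIC, replicates 1 and 2 lay near the lowest control and replicate 0 lay lower. Of 13 sinusoidal endothelial genes 11 fell in combination against control and 2 against polyIC; the Clec4g level went from 253, 165 and 57.8 FPKM in control to 25.6, 11.7 and 14.9 in combination. In combination against control, 1 of 6 stellate, 1 of 3 cholangiocyte, 3 of 5 erythroid and 7 of 7 fetal or tumour genes tested fell. None of the Kupffer or endothelial genes was among the 200 genes that tracked the members' mean most closely.

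Genes outside the set that tracked the members' mean log2(FPKM + 1) most closely over the 12 libraries included genes of both hepatocyte lists. The 10 highest Pearson correlations were those of Apom (0.995), 1300017J02Rik (0.994), Serpina1d (0.993), Cpb2 (0.991), Serpina1c (0.990), Ces2a (0.986), Pklr (0.986), Ces1c (0.986), Ugt2b5 (0.986) and Mup21 (0.985). Of these 10, 5 (Apom, Serpina1d, Cpb2, Serpina1c and Ces1c) are on the list of further secreted proteins, Apom being a lipoprotein component and Cpb2 a carboxypeptidase that slows clot lysis. Of the 200 highest, 31 were on that list or the acute phase list, counted together, and 24 on the cellular list.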

How the data were processed

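The deposited table holds 1 value per gene and library for 12 libraries (4 groups of 3). The unit was taken to be FPKM, which the authors made with Cuffdiff on mouse genome mm9, per the submitters' processing notes; the version, aligner, annotation and library scaling are not stated in the sources used. Without read counts, depth could be estimated only between libraries: from the commonest ratio of low values (up to 0.1 FPKM, 4741 genes) in 62 of 66 library pairs. A total of 22 entries at 0 in a whole group while another group had at least 5 FPKM in every library were left out as failed estimates; none was a member.

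Groups were compared with limma 3.58.1 (R 4.3.3, limma-trend, two-sided) on log2(FPKM + 1), in 1 fit of 12 libraries, over the 11976 genes that reached 1 FPKM in 3 or more libraries; the script was tested on simulated data. Results were recomputed with array quality weights, with the replicate number as a block, with quantile or median-of-ratios scaling, with a pseudocount of 0.1, without the filter or with a minimum mean of 5 FPKM, from the compared groups alone, and without single libraries. Ratios without a pseudocount and a scaling to hepatocyte genes were added after the data were seen. The members, the lists and the libraries left out together were chosen with earlier results of these data known. Values are printed for the 3 most abundant members of each role, and each comparison names its 3 lowest and 3 highest members; other genes are the most abundant 4 of a list or the 10 closest in pattern.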

Additional observations from a re-analysis of the deposited data

Results flagged for a closer look

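Hpx was the member for which adding polyIC gave opposite orderings without and with the antibody. Its polyIC libraries (131, 177 and 161 FPKM) were all above its controls (120, 122 and 48.6 FPKM), and its combination libraries (13.8, 35.0 and 38.6 FPKM) were all below its antiPDL1 libraries (79.1, 40.9 and 97.3 FPKM). The interaction was -2.11 on the log2(FPKM + 1) scale (SE 0.64). Its unadjusted limma p was 0.0069 and its adjusted p 0.999, so the difference did not pass the correction over 11976 genes.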

How the results depend on the processing

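Depth is known only in relative terms, so precision rests on the spread between 3 libraries a group. Combination against control called 34 to 40 members when single libraries were left out. Of the 40, 30 members were called under all 21 settings tried, and 4 more (C8a, F12, Fetub and Itih3) under the 20 in which they were tested, a minimum mean of 5 FPKM having left them out. The count in combination against polyIC (34) was 0 with no filter, 0 with quantile normalization, 18 with median-of-ratios rescaling and 0 to 40 without single libraries. With array quality weights the counts were 10 in polyIC against control, 39 in antiPDL1 against control, 5 in combination against antiPDL1 and 31 in polyIC against antiPDL1, where all were 0 without weights. Without control replicate 2 and antiPDL1 replicate 2 together they were 9, 39, 1 and 36. Leaving out 1 library gave 0 to 2, 0 to 34, 0 to 1 and 0 to 19 in the same order, and 0 to 0 for the interaction. The cause was not tested. Shares of all genes that passed are given above for the unweighted fit of 12 libraries only. The counts under these other settings are therefore not read as particular to the members. No member's change reversed in these alternatives where it had passed.

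For same-numbered libraries of different groups, the correlations of their deviations had a median of 0.027, from -0.29 to 0.32, with 4 of 18 over 0.1. For differently numbered libraries the median was -0.009, from -0.31 to 0.38, with 4 of 36 over 0.1. The numbers were not taken as pairs, although these values cannot exclude a weak pairing. With the replicate number as a block the count in combination against polyIC was 0, and in combination against control it was 40.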

Other observations

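By summed level, acute phase genes, listed as hepatocyte products whose RNA rises in inflammation, did not follow the order of the 40 plasma protein genes. Their summed level over 14 genes was 290, 273 and 186 FPKM in control, 589, 543 and 355 in polyIC, 389, 327 and 220 in antiPDL1 and 249.1, 345 and 354 with the combination. Hp, described below, made up most of the combination sums. Gene by gene, 10 of the 13 tested changes were negative in combination against control (median log2 change -1.19). In combination against polyIC 12 were negative (median -1.64), and against antiPDL1 10 (median -0.67). In polyIC against antiPDL1, 2 were negative (median 1.21). In polyIC against control 12 of the 13 changes were positive and 2 of 13 tested passed. The 2 were Orm2 (an orosomucoid, log2 change 2.62, SE 0.21, limma adjusted p = 0.000429) and Lcn2 (2.26, SE 0.36, adjusted p = 0.0115). Lcn2 is the neutrophil lipocalin named above, and which cells its RNA came from was not tested. Hamp, which encodes the iron-regulating hormone hepcidin, read 64.1, 22.4 and 9.73 FPKM in control, 123, 80.9 and 61.0 in polyIC, 16.0, 6.71 and 40.6 in antiPDL1 and 2.53, 13.9 and 9.87 with the combination (1.75 in polyIC against control, limma adjusted p = 0.195). Orm1 (orosomucoid) read 38.1, 25.9 and 12.8 FPKM in control and 58.0, 61.8 and 41.6 in polyIC (1.15, limma adjusted p = 0.189). Hp, which encodes haptoglobin and is also expressed in neutrophils, read 122, 155 and 113 FPKM in control and 193, 257 and 253 in combination (0.84, limma adjusted p = 0.101), where all 40 members fell. Orm2 was named after its value was seen.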
